A study of Rattus norvegicus with 9 samples.

Results

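The genes described here encode 9 proteins of the red cell membrane and of the spectrin skeleton beneath it: Slc4a1, Aqp1, Rhag, Rhd, Ank1, Epb42, Sptb, Epb41 and Gypc. They were chosen by name, and each was read from the probe set that carried its symbol in the array annotation. Where a gene had several probe sets, the one with the highest mean over 9 arrays was taken. All 9 genes were found, on 10 probe sets, among 14506 genes that had a probe set of their own on the array. Only Rhag had 2 probe sets, and these held identical values on all 9 arrays.

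The samples were RNA of 3 untreated male Wistar rats, numbered 2, 5 and 7, from whole blood, from the hippocampus (HC) and from the prefrontal cortex (PFC). The rats had been 6 weeks old on arrival and were then housed for 1 week. Each tissue of each rat was hybridized to 1 Rat Gene 1.0 ST array, which gave 3 arrays per tissue. The labels give no genotype other than the strain, and the same rats supplied all 3 tissues. Blood was collected into RNA-stabilizing tubes, and the brain tissue was punched from frozen sections. The comparison asks how far genes read in blood are also read in the brain.

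Values are on the log2 scale of RMA (robust multi-array average), so that 1 unit is a doubling of signal. The SD over probe sets was 1.85 to 1.90 in blood and 2.18 to 2.21 in the brain. Presence in a tissue means a mean of its arrays above 6.2, the cut-off given in the methods of the study. A background limit was taken for each tissue from 1298 probe sets of smell and taste receptors, whose 95th percentile was 5.53 in blood and, lower, 4.88 in HC and 4.85 in PFC. The tissues carried the marker genes of their labels. All 12 neuronal and all 9 astrocyte markers on the array were present in both brain regions, and all 9 T cell and all 19 erythroid markers were present in blood. Of the erythroid markers, 8 were also present in HC and 8 in PFC, and of the neuronal markers 3 were present in blood.

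The red cell has no internal scaffold other than a thin protein net on the inner face of its membrane. Spectrin tetramers form the strands of this net, and short actin filaments form its nodes. It is held to the membrane at 2 kinds of sites: ankyrin ties spectrin to the anion exchanger encoded by Slc4a1 and to the Rh proteins, and the Epb41 protein ties the nodes to glycophorin C. Defects in several of these genes are known causes of inherited spherocytosis and elliptocytosis in humans. Mature mammalian red cells have no nucleus, so their RNA is left over from the reticulocyte stage. Several of the same genes, or close paralogs of them, build the spectrin skeleton of neurons and the water channels of brain barriers.

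Promoters were looked at because the 9 genes moved together between tissues. The RefSeq table for rat assembly GRCr8 held 300 bases, 250 before and 50 after the start of the gene, for 7 of the 9 genes. Slc4a1 and Ank1 were not among them. Shown first are 3 genes that were not called present in the brain and then Sptb, which was present in all 3 tissues. Capitals mark matches, on either strand, to the GATA motif, which is AGATAA with T also allowed as its first letter and G as its last, and to the CACCC box written as CCNCNCCC. No match to one of these motifs overlapped a match to the other in these 4 sequences, though 2 CACCC matches in Sptb overlap each other. The sequences run along the strand of the gene.
Rhd, chr5:152370950-152371249, plus strand: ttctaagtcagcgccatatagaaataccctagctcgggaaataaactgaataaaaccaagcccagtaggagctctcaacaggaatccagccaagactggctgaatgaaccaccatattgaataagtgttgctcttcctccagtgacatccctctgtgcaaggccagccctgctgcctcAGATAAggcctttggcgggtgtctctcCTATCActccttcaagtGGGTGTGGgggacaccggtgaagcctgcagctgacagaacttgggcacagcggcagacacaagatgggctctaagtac
Rhag, chr9:27594341-27594640, minus strand: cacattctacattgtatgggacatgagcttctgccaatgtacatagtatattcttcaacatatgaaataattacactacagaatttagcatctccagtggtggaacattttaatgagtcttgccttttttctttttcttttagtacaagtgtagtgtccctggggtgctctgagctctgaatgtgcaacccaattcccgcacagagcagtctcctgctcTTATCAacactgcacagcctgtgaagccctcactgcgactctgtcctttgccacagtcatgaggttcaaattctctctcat
Epb42, chr3:128451634-128451933, minus strand: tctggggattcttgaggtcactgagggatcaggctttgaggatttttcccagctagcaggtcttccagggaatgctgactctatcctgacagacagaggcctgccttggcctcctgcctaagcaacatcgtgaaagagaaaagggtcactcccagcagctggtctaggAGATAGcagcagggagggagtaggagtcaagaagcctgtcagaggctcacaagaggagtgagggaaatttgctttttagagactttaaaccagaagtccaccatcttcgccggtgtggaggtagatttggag
Sptb, chr6:101170229-101170528, minus strand: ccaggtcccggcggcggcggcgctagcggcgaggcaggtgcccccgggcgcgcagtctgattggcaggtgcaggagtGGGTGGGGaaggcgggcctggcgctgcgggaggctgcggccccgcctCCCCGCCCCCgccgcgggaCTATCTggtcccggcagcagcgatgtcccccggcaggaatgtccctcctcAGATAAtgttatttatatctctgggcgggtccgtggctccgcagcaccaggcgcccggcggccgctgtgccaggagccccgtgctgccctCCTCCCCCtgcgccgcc

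GATA1 and KLF1 are transcription factors of red cell precursors, and they are known to bind GATA and CACCC motifs. Of the 7 promoters, 5 held a GATA match, namely those of Epb42, Sptb, Gypc, Rhag and Rhd. The same motif was found in 30.3% of all 33469 rat promoters of that length. A CACCC match was in 5 of the 7, those of Epb41, Sptb, Gypc, Rhd and Aqp1, against 46.3% of all promoters. The stricter form CCACACCC, found in 3.22% of promoters, was in that of Rhd, where its complement runs from position -28 to -21. The promoters also differed in base composition. The promoter of Sptb was 74.3% G or C and that of Epb41 70.7%, with observed over expected CpG ratios of 0.772 and 0.856. Those of Epb42 and Rhag held 51.7% and 42.7% G or C, with CpG ratios of 0.155 and 0.151. The median promoter held 51.7% with a ratio of 0.392. A match is a description of letters and not a bound site.

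All 9 genes were lower in both brain regions than in blood, in each of the 3 rats. The gap was widest for the anion exchanger gene Slc4a1, the Rh gene Rhd and Epb42, and narrowest for the skeleton genes Sptb and Ank1 and for the glycophorin gene Gypc. Between the brain regions, Gypc and Epb41 were lower in HC than in PFC. In bulk RNA, fewer cells of a type and less RNA per cell cannot be told apart. By the presence cut-off, 9 of the 9 genes were present in blood, 3 in HC (Epb41, Sptb and Ank1) and 4 in PFC (the same genes and Gypc).

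**Figure D1:**
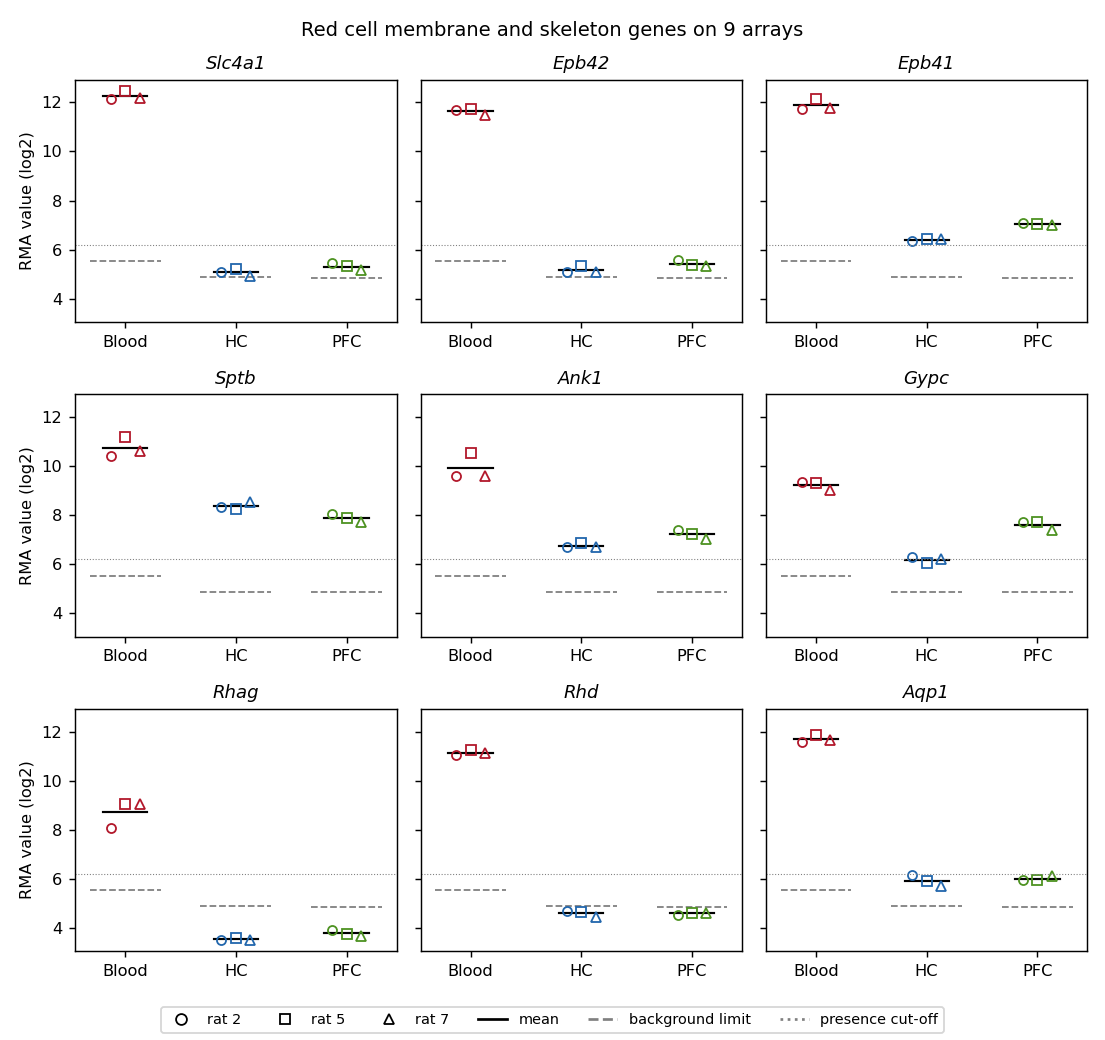
RMA value (log2) of each of the 9 genes on the 9 arrays, with 1 symbol per rat, the tissue mean as a black line, the background limit of each tissue as a dashed line and the presence cut-off of 6.2 as a dotted line. No brain array reached a blood array for any of the genes, and Rhag and Rhd lay below the background limit in both brain regions.

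Both comparisons with blood were read against a wide background. HC minus blood called 9 of 9 genes lower, where 36.3% of all 16884 probe sets tested were called lower and 47.6% higher. PFC minus blood called 9 of 9 lower too, against 36.7% of all probe sets lower and 47.3% higher. The test was limma with Benjamini-Hochberg adjustment over all probe sets tested, and a difference was called at an adjusted p under 0.05. A probe set was tested if its mean exceeded 6.2 in at least 1 tissue. Slc4a1, Epb42, Rhag, Rhd and Aqp1 passed this filter through blood alone, so their direction was fixed by it and adds no support. The median over the 9 genes was -5.48 for HC minus blood and -4.95 for PFC minus blood, while the median over all probe sets tested was 0.22 and 0.20. With Rhag and Rhd set to the background limit, these medians were -5.48 and -4.84. No brain array reached a blood array for any of the 9 genes, while 36.5% of all probe sets tested lay wholly below blood in HC and 36.5% did so in PFC. The 2 comparisons share the blood arrays, so their values stand side by side and are not independent of each other.

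Slc4a1 encodes the chloride and bicarbonate exchanger of the red cell, known as band 3 (probe set 10747813). It read 12.16, 12.48 and 12.19 in the blood of rats 2, 5 and 7, 5.07, 5.21 and 4.94 in HC, and 5.44, 5.32 and 5.16 in PFC. The blood arrays stood far above the others, and the HC and PFC arrays overlapped just above the background limit. The difference was -7.20 (SE 0.122, adjusted p = 7.24e-11) for HC minus blood, a 147-fold lower signal, and -6.96 (SE 0.122, adjusted p = 8.04e-11) for PFC minus blood. Aqp1 encodes the main water channel of the red cell (probe set 10855701), which in the brain is known from the choroid plexus. Its values were 11.59, 11.86 and 11.67 in blood, 6.16, 5.90 and 5.71 in HC and 5.94, 5.97 and 6.11 in PFC. The brain arrays overlapped between the regions, lay above the background limit and did not reach the presence cut-off. It was lower than in blood by 55.1-fold in HC (log2 difference -5.78, SE 0.128, adjusted p = 1.95e-10) and by 52.1-fold in PFC (-5.70, SE 0.128, adjusted p = 2.06e-10).

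The choroid plexus lies beside the hippocampus, and its markers were read beside Aqp1. Ttr, the transthyretin gene of the choroid plexus, read 11.20, 10.09 and 9.96 in the HC of rats 2, 5 and 7 and 4.45, 4.39 and 4.20 in PFC. Kl, another gene of that epithelium, read 6.33, 5.57 and 5.38 in HC and 5.35, 4.99 and 5.27 in PFC. In HC the Aqp1, Ttr and Kl values were highest in rat 2. Of the 14 choroid plexus genes on the array, 12 were highest in the HC of rat 2 and 2 in that of rat 7. The 12 include Folr1 (5.3932 in rat 2 and 5.3927 in the others) and Krt18 (5.6012 and 5.5887). They also include Prlr, which was below the background limit in HC. The share of all probe sets highest in the HC of rat 2 was not counted, so the count is a description only. Over these 14 genes the array means ran from 5.80 to 6.28 in HC and from 5.02 to 5.14 in PFC, with 2 of 14 present in HC and 1 in PFC. Folr1, likewise a choroid plexus gene, lay at 5.39 on each of the HC arrays and at 5.03 to 5.29 in PFC. Aqp1 itself differed between HC and PFC by -0.08 (SE 0.128, 95% interval -0.37 to 0.21, adjusted p = 0.862), and the part of the choroid plexus in its HC values was not tested.

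Rhag encodes the Rh-associated glycoprotein, an ammonia and gas channel that the Rh complex needs (probe set 10926769). It read 8.07, 9.05 and 9.04 in blood, 3.49, 3.59 and 3.50 in HC, and 3.93, 3.74 and 3.66 in PFC. Rat 2 was the low blood array, and every brain array was below the background limit. The fold was therefore taken as a lower bound, with the brain mean raised on each array to that limit: Rhag was at least 14.3-fold lower in HC than in blood (adjusted p = 1.45e-08) and at least 14.4-fold lower in PFC (adjusted p = 2e-08). Rhd encodes the Rh antigen carrier of the same complex (probe set 10872814). Its values were 11.03, 11.26 and 11.13 in blood, 4.69, 4.65 and 4.45 in HC and 4.54, 4.62 and 4.61 in PFC. The blood arrays lay close together, and the brain arrays overlapped below the background limit. Rhd was at least 76.5-fold lower in HC (adjusted p = 4.58e-11) and at least 76.9-fold lower in PFC (adjusted p = 4.52e-11). The p-values beside these bounds belong to the fitted differences of the unraised values. Those were -5.20 in HC and -4.95 in PFC for Rhag, and -6.54 and -6.55 for Rhd. Rhag and Rhd were the only members of the 9 that did not rise above background in the brain on any array.

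Ank1 encodes ankyrin-1, the adaptor between spectrin and the anion exchanger (probe set 10792354). It read 9.61, 10.52 and 9.60 in blood, 6.70, 6.84 and 6.69 in HC and 7.39, 7.24 and 7.05 in PFC. Blood of rat 5 stood apart from the other blood arrays, and all HC arrays lay below all PFC arrays. Ank1 was lower than in blood by 8.94-fold in HC (-3.16, SE 0.223, adjusted p = 4.52e-07) and by 6.42-fold in PFC (-2.68, SE 0.223, adjusted p = 1.54e-06). Epb42 encodes a catalytically inactive relative of the transglutaminases that strengthens the ankyrin link (probe set 10848962). It read 11.70, 11.72 and 11.47 in blood, 5.08, 5.32 and 5.10 in HC and 5.59, 5.36 and 5.32 in PFC. The brain values lay above the background limit and under the presence cut-off. The difference was -6.46 (SE 0.113, adjusted p = 7.24e-11) for HC minus blood and -6.21 (SE 0.113, adjusted p = 8.04e-11) for PFC minus blood, which is 88.2-fold and 73.9-fold. Of the pair that forms the ankyrin link, Ank1 was thus present in both brain regions and Epb42 in neither.

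Sptb encodes the beta chain of red cell spectrin (probe set 10890691), a chain also known from skeletal muscle and brain. Its values were 10.42, 11.20 and 10.61 in blood, 8.35, 8.26 and 8.54 in HC and 8.04, 7.88 and 7.73 in PFC. Blood was again highest in rat 5, and each HC array lay above each PFC array. It was lower than in blood by 5.14-fold in HC (-2.36, SE 0.186, adjusted p = 1.06e-06) and by 7.27-fold in PFC (-2.86, SE 0.186, adjusted p = 2.48e-07). Epb41 encodes the protein that joins spectrin to actin and to glycophorin C (probe set 10880204). It read 11.72, 12.16 and 11.77 in blood, 6.34, 6.43 and 6.44 in HC and 7.09, 7.04 and 7.00 in PFC. The brain arrays of a region lay within 0.10 of each other, and the regions did not overlap. The drop from blood was 44.6-fold in HC (-5.48, SE 0.117, adjusted p = 1.66e-10) and 28.6-fold in PFC (-4.84, SE 0.117, adjusted p = 3.14e-10).

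Gypc encodes glycophorin C, the membrane anchor of the Epb41 protein (probe set 10803666). It read 9.33, 9.33 and 9.04 in blood, 6.30, 6.04 and 6.202 in HC and 7.71, 7.71 and 7.37 in PFC. The tissues formed 3 separate steps, with blood highest and HC lowest. Gypc was 8.31-fold lower in HC than in blood (-3.06, SE 0.129, adjusted p = 1.07e-08) but only 3.11-fold lower in PFC (-1.64, SE 0.129, adjusted p = 1.04e-06), the smallest gap to blood among the 9 genes. Its HC mean of 6.18 fell just under the presence cut-off, which its PFC mean of 7.60 exceeded.

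**Figure D2:**
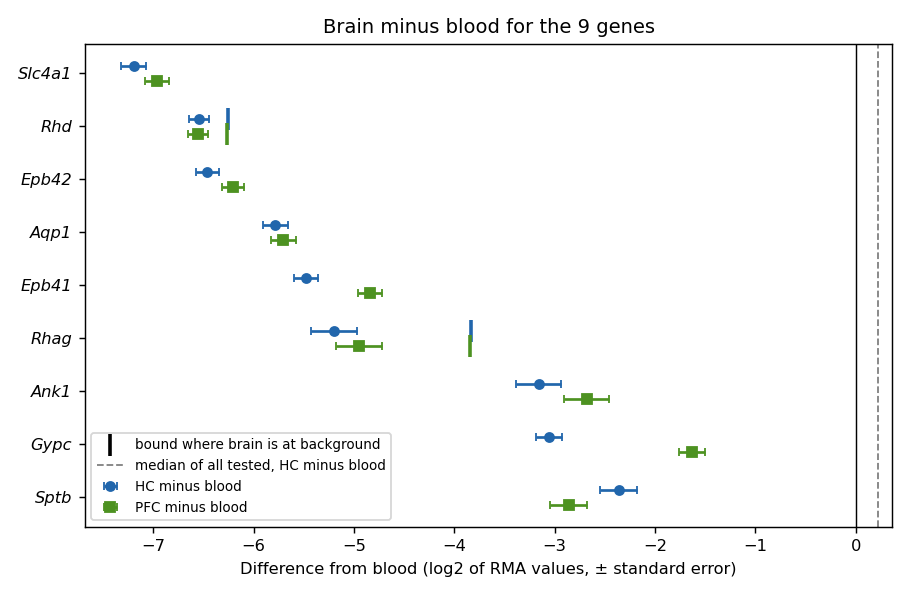
Difference from blood (log2 of RMA values) of the 9 genes in HC (circles) and PFC (squares), with the standard error of the limma fit as horizontal bars, the bound for Rhd and Rhag as upright marks and the median of all probe sets tested as a dashed line. All 18 differences lay left of zero, from -7.20 for Slc4a1 in HC to -1.64 for Gypc in PFC.

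The scaling of the arrays bears on these differences, since 14 of 15 housekeeping genes were called higher in each brain region than in blood and 1 lower. When the arrays were scaled to 15 housekeeping genes, all differences from blood moved down by 1.06 in HC and 1.12 in PFC. The 9 genes stayed lower and called, while the split of all probe sets changed from 8030 higher and 6133 lower to 3598 higher and 10984 lower for HC minus blood. For PFC minus blood it changed from 7979 higher and 6197 lower to 3439 higher and 11231 lower. Scaling to the probe sets present in all 3 tissues moved the differences down by 0.34 in HC and 0.33 in PFC. Each of the 9 genes was called lower than blood under every alternative tried.

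Between the brain regions, 2 of 9 genes were called lower in HC and 0 higher, where 4.66% of all probe sets tested were called lower and 4.51% higher. Gypc was lower in HC by 1.42 (SE 0.129, adjusted p = 9.88e-05), which is 2.68-fold and was seen in 3 of 3 rats. Epb41 was lower in HC by 0.64 (SE 0.117, adjusted p = 0.00715), which is 1.56-fold, likewise in 3 of 3 rats. The call of Epb41 was lost without rat 2 (adjusted p = 0.117), without rat 7 (0.101) and under housekeeping scaling (0.0753), whereas that of Gypc was held in each of these fits. The ranges of the regions did not overlap for 5 genes lower in HC (Epb42, Epb41, Ank1, Gypc and Rhag) and 1 higher (Sptb). Of all probe sets tested, 21.0% lay wholly lower in HC in this way and 20.9% wholly higher. Rhag was below background in both regions, so its order carries no level.

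The other genes were not called between HC and PFC, and their differences with 95% intervals were as follows. Sptb had a higher mean in HC, by 0.50 (SE 0.186, 95% interval 0.08 to 0.92, adjusted p = 0.162). Ank1 differed by -0.48 (SE 0.223, 95% interval -0.98 to 0.02, adjusted p = 0.295). Epb42 differed by -0.26 (SE 0.113, 95% interval -0.51 to -0.0012, adjusted p = 0.261) and Slc4a1 by -0.24 (SE 0.122, 95% interval -0.51 to 0.04, adjusted p = 0.364). These intervals are not adjusted for the number of probe sets. Rhag and Rhd were below background in both regions, so no difference is read for them. The spread of Sptb and Ank1 came mostly from blood, where their SDs were 0.408 and 0.530 against 0.0863 to 0.172 in the brain, and the fit pools the spread over tissues. With the brain arrays alone, Ank1 was called lower in HC (adjusted p = 0.0111) and Sptb higher (adjusted p = 0.0133), in a fit that called 25.7% of all probe sets in 1 direction or the other. Without the blood array of rat 5 the pooled fit called both as well (adjusted p = 0.011 and 0.0173).

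Globins were read beside these genes as markers of red cell RNA. Whether their signal in the brain samples came from red cells was not tested. Hbb, a beta globin gene, read 8.78, 8.90 and 8.38 in HC and 9.56, 10.11 and 9.31 in PFC, against 13.74 to 13.85 in blood. HC was lower than PFC for Hbb by 0.97 (adjusted p = 0.0123), for Hbb-b1 by 1.01 (adjusted p = 0.0182) and for Hba-a3 by 0.77 (adjusted p = 0.0114). Alas2, the first enzyme of heme synthesis in red cell precursors, was lower in HC by 0.66 (adjusted p = 0.034). That call was lost under housekeeping scaling (adjusted p = 0.0705). The Alas2 means of 5.43 in HC and 6.09 in PFC were under the presence cut-off. These 4 genes were the only erythroid markers of 19 called between the regions, and their direction is that of Gypc and Epb41. Of all probe sets tested, 4.66% were called lower in HC and 4.51% higher. Under housekeeping scaling 3 of the 19 were called lower in HC. The 2 beta globin genes are near-identical and their probe sets can bind the same transcripts, so they are not separate evidence. Within PFC, rat 5 was highest for all 4 of these genes, whereas rat 2 alone was highest for 6 of the 9 membrane and skeleton genes and tied with rat 5 for Gypc. Within HC, rat 5 was highest for 3 of these 4 genes and for 4 of the 9. Rhag is among the 6 in PFC and the 4 in HC, although it was below background in both regions. The share of all probe sets for which each rat was highest in HC or PFC was not counted. Slc4a1, which had the widest gap to blood, differed between the regions by -0.24 and was not called. The part of red cell RNA in the difference of Gypc and Epb41 was not tested.

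**Figure D3:**
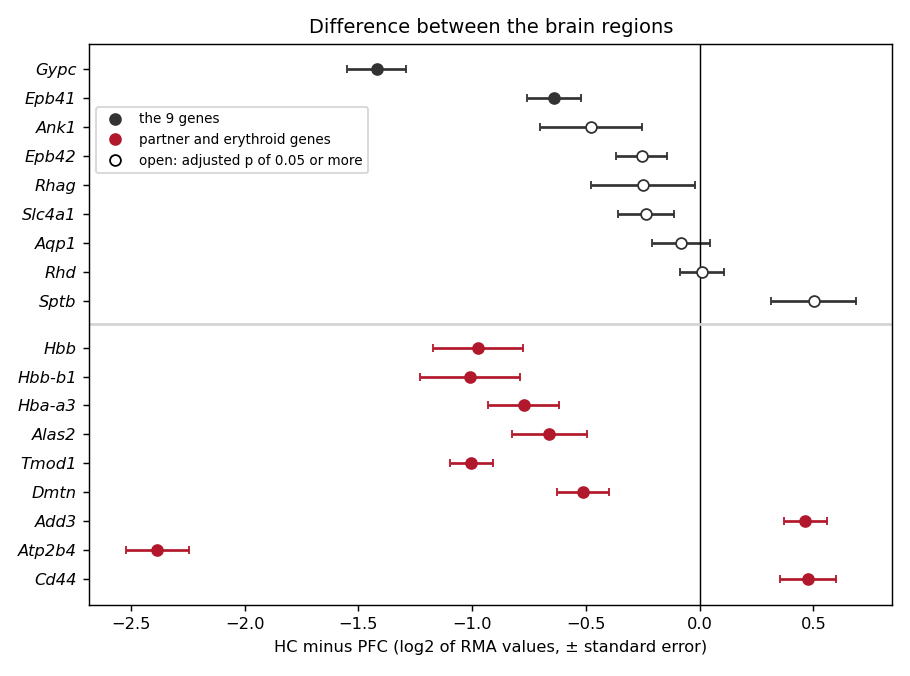
HC minus PFC (log2 of RMA values, with the standard error of the limma fit) for the 9 genes in black and for the 9 partner and erythroid genes called in this comparison in red, with filled symbols for an adjusted p under 0.05. Gypc at -1.42 and Epb41 at -0.64 were called, and Sptb at 0.50 had the highest value of the 9 genes; of the genes in red, Add3 at 0.46 and Cd44 at 0.48 were called higher in HC.

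The further proteins of the skeleton were taken as a list of 14 genes, of which 11 were on the array under their symbol and all 11 were tested. Between HC and blood 3 were higher and 4 lower, and between PFC and blood 2 were higher and 5 lower. Of all probe sets tested, 47.6% were called higher and 36.3% lower in HC, and 47.3% and 36.7% in PFC. The median difference of the 11 was -0.05 in HC and -0.13 in PFC, beside 0.22 and 0.20 over all probe sets. Under housekeeping scaling 0 of the 11 were higher in either region, while 11 were lower in HC and 10 in PFC. That scaling called 10984 of all 16884 probe sets tested lower in HC and 11231 in PFC. Add2, a beta adducin that caps the actin nodes, was lower than in blood by 2.77 in HC (adjusted p = 9.66e-10) and by 2.70 in PFC (adjusted p = 1.11e-09). Tmod1, the tropomodulin that caps the other filament end, was lower by 2.55 in HC (adjusted p = 4.63e-09) and by 1.55 in PFC (adjusted p = 1.56e-07). Rac2, a small GTPase of blood cells, was lower by 5.21 in HC and by 5.00 in PFC, and Tmod3, a second tropomodulin, by 0.87 and 0.64. Rac2 is also known from white blood cells, which the blood samples hold. It passed the filter through blood alone, so its lower direction was fixed by the filter and adds no support. The counts and medians of this list include Rac2.

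Between the brain regions, Tmod1 had a gap as Gypc did. It read 7.43, 7.62 and 7.54 in HC and 8.55, 8.53 and 8.53 in PFC, so that the regions stood apart, and HC was lower by 1.004 (SE 0.095, adjusted p = 0.000131). Dmtn, the actin bundling protein dematin, was lower in HC by 0.51 (adjusted p = 0.021), a call that was lost under housekeeping scaling (adjusted p = 0.154). Add3 was the skeleton partner called higher in HC, by 0.46 (adjusted p = 0.0131). The remaining 8 of the 11 were not called between the regions, where 4.66% of all probe sets tested were called lower in HC and 4.51% higher.

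Other membrane proteins of the red cell formed a list of 31 genes, with 21 on the array and tested. HC minus blood called 5 of them higher and 7 lower, and PFC minus blood 6 higher and 8 lower, with medians of -0.11 and -0.05. Of all probe sets tested, 47.6% were called higher and 36.3% lower in HC, and 47.3% and 36.7% in PFC. Housekeeping scaling changed the counts of this list to 2 higher and 18 lower in HC and 3 higher and 18 lower in PFC. Stom, stomatin of the lipid rafts, was lower than in blood by 5.00 in HC (adjusted p = 3.07e-10) and by 5.03 in PFC (adjusted p = 3.02e-10). Kcnn4, the calcium-activated potassium channel of the red cell, was lower by 3.73 and 3.71, and the adhesion receptor Cd44 by 3.48 and 3.95. Stom, Kcnn4, Cd44, Aqp3 and Piezo1 passed the filter through blood alone, so their lower direction was fixed by it and adds no support. The counts and medians of this list include them. The calcium pump gene Atp2b1 went the other way, with 3.04 higher in HC (adjusted p = 9.76e-10) and 2.94 in PFC (adjusted p = 1.14e-09). Its relative Atp2b4 did not pass the test against blood in HC (difference -0.20, SE 0.139, adjusted p = 0.212) and higher in PFC by 2.19 (adjusted p = 2.04e-07), so that HC and PFC differed by -2.38 (adjusted p = 7.34e-06). Cd44 was the other gene of this list called between the regions, 0.48 higher in HC (adjusted p = 0.0392). All 9 membrane and skeleton genes chosen here were lower in the brain under each scaling, whereas the partner lists were split under the deposited scaling. Under housekeeping scaling the partner lists were mostly lower. So were all probe sets tested, with 10984 of 16884 called lower in HC and 11231 in PFC, and this is not particular to the lists.

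The paralogs of the 9 genes were measured on the same arrays. Of 38 paralogs in the list, 34 were on the array and 22 were bright enough in some tissue to be tested. HC minus blood called 15 higher and 4 lower, and PFC minus blood 15 higher and 5 lower, beside 47.6% and 47.3% of all probe sets called higher. Ank2, Ank3, Epb41l3, Slc4a8, Slc4a10, Aqp4 and Aqp11 were present in both brain regions and not in blood. Epb41l4a was present in HC alone. These genes passed the filter through the brain alone, so their higher direction there was fixed by it and adds no support. Aqp3 and Aqp5 passed it through blood alone, so their lower direction in the brain was likewise fixed. The counts and medians of the paralogs include all of these genes. Under housekeeping scaling the counts were 10 higher and 8 lower in HC and 10 higher and 9 lower in PFC. The median difference was 1.31 in HC and 1.40 in PFC, or 1.06 and 1.28 with values under the background limit raised to it.

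For the ankyrins, Ank1 was lower in the brain while Ank2, the broadly expressed brain ankyrin, was higher by 5.36 in HC (adjusted p = 7.24e-11) and by 5.37 in PFC (adjusted p = 8.04e-11). Ank2 read 5.80, 5.65 and 5.47 in blood, where 1 of 3 arrays was above its background limit, and 10.96 to 11.05 in the brain. Ank3, the ankyrin of the axon initial segment, was higher by 3.39 and 3.16. Among the spectrins, Sptan1, the alpha chain of brain spectrin, was higher by 3.15 in HC and 3.30 in PFC, and its partner Sptbn1 by 1.92 and 1.93, while Sptb fell. In the Epb41 family, the neuronal member Epb41l1 was higher by 3.99 in HC (adjusted p = 3.26e-09) and, by nearly the same amount, in PFC (adjusted p = 3.11e-09). Epb41l3 was higher by 3.29 and 3.87, and it was the 1 paralog called between the regions, lower in HC by 0.58 (adjusted p = 0.0237). In blood, Epb41l3 was above its background limit on 2 of 3 arrays. Each of these 6 genes kept its direction under both scalings.

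Among the transporters, Slc4a10, a bicarbonate transporter of neurons, read 4.88 to 5.44 in blood, below the background limit, and 10.19 to 10.55 in the brain. Set against that limit, its log2 difference was at least 4.61 in HC (adjusted p = 4.59e-10) and at least 4.94 in PFC (adjusted p = 3.26e-10), whereas Slc4a1 was lower in both regions. The p-values of Slc4a10 belong to its fitted differences of 5.10 and 5.42 from the unraised blood values. Slc4a2, the broadly expressed anion exchanger, differed from blood by -0.0025 in HC (SE 0.121, adjusted p = 0.985) and by -0.12 in PFC (SE 0.121, adjusted p = 0.363), but under housekeeping scaling it was called lower by 1.06 in HC (adjusted p = 3.57e-06) and by 1.24 in PFC (adjusted p = 1.15e-06). It was also called lower when scaled to probe sets present in all 3 tissues (adjusted p = 0.0129 and 0.00248). Of the water channels, Aqp4 of astrocytes read 5.19, 6.10 and 5.29 in blood and 10.20 to 10.92 in the brain. Only 1 of 3 blood arrays was above its background limit, so the differences of 5.36 in HC (adjusted p = 5.21e-09) and 4.76 in PFC (adjusted p = 1.1e-08) depend on values at background. Aqp1 thus went down and Aqp4 up from blood to brain, on probe sets whose levels cannot be set against each other. Tgm2, an active transglutaminase related to Epb42, was lower in HC by 1.16 (adjusted p = 4.26e-05) and in PFC by 1.11 (adjusted p = 5.84e-05).

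**Figure D4:**
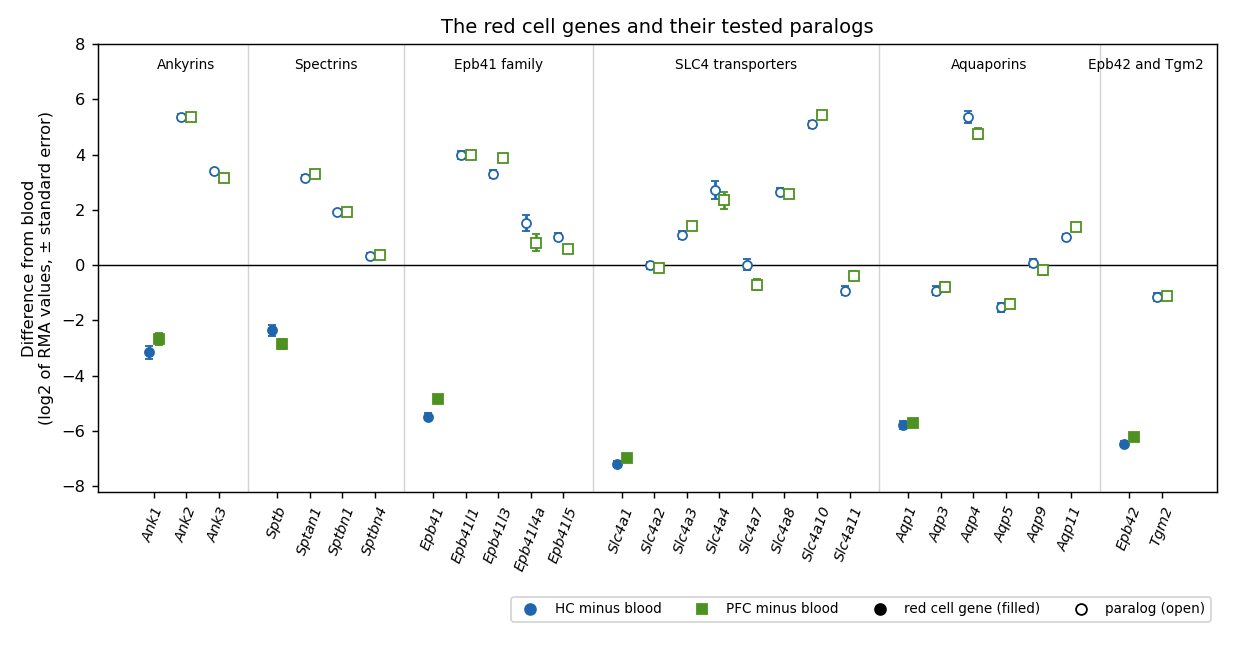
Difference from blood (log2 of RMA values, with the standard error of the limma fit) for 6 of the 9 genes (filled) and their 22 tested paralogs (open), grouped by family, in HC (circles) and PFC (squares). The filled symbols lie between -7.20 and -2.36. Of the 22 paralogs, 15 were called higher in each region under the deposited scaling and 10 under housekeeping scaling. In blood, Slc4a10 and Aqp11 were at background on all 3 arrays. Ank2, Aqp4, Slc4a8 and Epb41l4a were above it on 1 of 3 and Epb41l3 on 2 of 3. The symbols of these genes are fitted differences against dim blood values. These genes and Ank3 passed the filter through the brain alone, so their direction was fixed by it, for Epb41l4a in HC only. Aqp3 and Aqp5 passed it through blood alone, so their lower direction was fixed too.

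The 9 genes were also set beside a list of other erythroid markers, which shares no gene with the lists of membrane and skeleton genes. Of 19 on the array, 8 were present in HC and the same 8 in PFC. The others passed the filter through blood alone, so their direction was fixed by it. In HC 18 of 19 were called lower than in blood and 18 in PFC, beside 36.3% and 36.7% of all probe sets tested. The medians were -4.88 and -4.55, beside -5.48 and -4.95 for the 9 genes. The exception was the transferrin receptor gene Tfrc, which differed from blood by 0.15 in HC (adjusted p = 0.547) and by 0.24 in PFC (adjusted p = 0.341). Under housekeeping scaling Tfrc was lower too, by 0.91 in HC (adjusted p = 0.0148) and by 0.87 in PFC (adjusted p = 0.0177), so that 19 of 19 were lower. Alas2 was lower by 7.95 in HC (adjusted p = 1.38e-10) and Hba-a3 by 6.33 (adjusted p = 3.24e-10). Ahsp, which guards free alpha globin, and Hemgn, a nuclear protein of red cell precursors, were below background in the brain, with log2 differences of at least 6.62 and 6.76 in HC. The globin values in blood lay at 13.68 to 13.85, close to 14.01, the highest value on the arrays. Gata1 and Klf1, which encode the factors named with the promoters, were present in blood at 10.26 to 10.58 and 10.16 to 10.80. In the brain they read 4.46 to 5.07 and 5.60 to 5.73.

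Within blood, the 9 genes were not equally steady. Rhd, Epb42 and Aqp1 had SDs of 0.116, 0.136 and 0.141 over 3 rats, while Rhag, Ank1 and Sptb had SDs of 0.562, 0.530 and 0.408. Rat 5 had the highest blood value for 8 of 9 genes, the exception being Gypc, and for 13 of 19 erythroid genes. Over all probe sets tested, rat 5 was highest for 31.7%. It was highest for 0 of 9 T cell genes, 0 of 6 platelet genes and 1 of 15 housekeeping genes, but also for 4 of 7 neutrophil genes, 11 of 21 membrane partners, 12 of 22 paralogs and 5 of 9 astrocyte genes. The median deviation of rat 5 was 0.34 over the neutrophil genes and 0.20 over the 9 genes. The deviation of rat 5 from the mean of the blood arrays was 0.61 for Ank1, 0.46 for Sptb and 0.27 for Epb41, and 0.09 for both Epb42 and Gypc. Rhag differed in kind, since rat 7 (0.32) stood level with rat 5 (0.33) and rat 2 was low (-0.65). The differences between blood samples were not tested, as each rat gave 1 blood array.

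**Figure D5:**
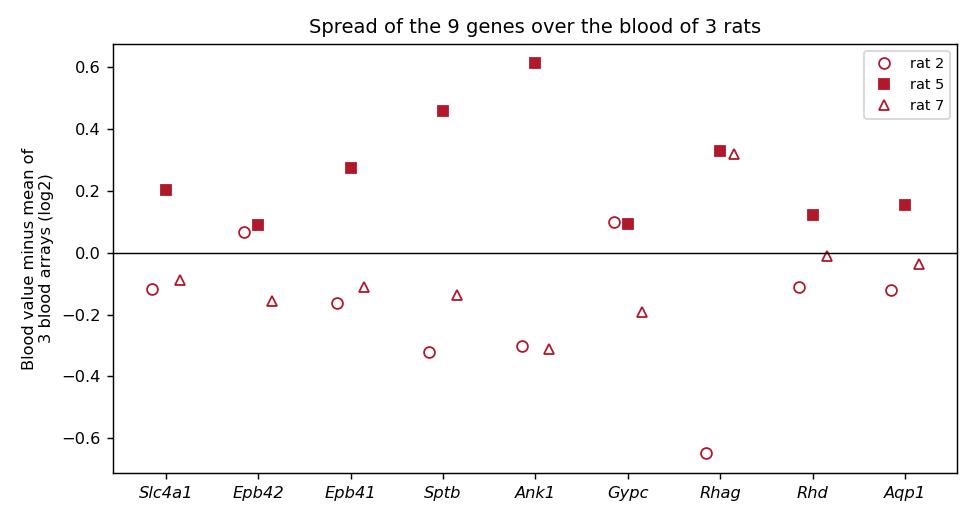
Blood value of each of the 9 genes minus its mean over the 3 blood arrays (log2), with rat 2 as circles, rat 5 as filled squares and rat 7 as triangles. Rat 5 lies highest for 8 genes, by up to 0.61 for Ank1, and rat 2 lies lowest for Rhag at -0.65.

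For Slc4a1, Sptb and Aqp1, the genes with the most similar values on the 9 arrays were looked up among 15309 other probe sets with 1 symbol. Similarity was the root mean square difference of the 9 log2 values, which depends on the level of a probe set as well as on its pattern. Rsad2 (0.277), Epb42 (0.391), Pf4 (0.521), Cd52 (0.530) and Irf7 (0.560) came closest to Slc4a1. Only Epb42 is of the membrane skeleton, whereas Pf4 is a platelet gene and Cd52 a lymphocyte gene. Tspan33 (0.279), Tmem134 (0.280), Marchf8 (0.318), Smox (0.343) and Fam89b (0.354) came closest to Sptb. Tmem86b (0.202), Dhrs11 (0.206), Slc25a37 (0.210), Pf4 (0.338) and Irf7 (0.360) came closest to Aqp1. Slc25a37 encodes mitoferrin, the iron importer of red cell mitochondria. With 3 tissues and 3 arrays each, such likeness rests mainly on the step between blood and brain.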

How the data were processed

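Values were read from the series table of 9 arrays. Quantile normalization and RMA, which yields 1 value per probe set and array, were done by the authors, and the deposited values are read as log2 because the base is not stated. RMA can give arrays identical values and compresses the brightest signals. Of 29215 probe sets, 29214 had values, 15310 carried 1 symbol and 323 several. Symbols came from the array annotation, updated through RefSeq (GRCr8), which matched 15279. No genome build of the probes was given in the sources used here. The methods mention 4 rats and 1 omitted sample, the labels 6 rats and the design text 3.

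Tissues were compared with limma 3.58.1 in R 4.3.3: tissue as a factor of 3 levels, all 9 arrays, no block, empirical Bayes, Benjamini-Hochberg over 16884 probe sets with a mean above 6.2 in at least 1 tissue. An exact permutation test of 3 arrays against 3 cannot go below 0.1, so none is given. Each array of a tissue is another animal. Same-numbered samples come from the same rat according to the labels; deviations from the tissue means correlated at -0.08 to 0.29 between samples of the same rat and at -0.26 to 0.12 between different rats. The random block used statmod 1.5.0. The fit was tested on simulated data, and promoters were searched and figures drawn in Python 3.11.15 with matplotlib 3.10.9.

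The 9 genes and the 16 other lists were chosen with earlier results of these data known. Besides the 9 genes, up to 4 per list with the widest difference from blood, up to 2 per list called between the brain regions, the 5 genes closest to Slc4a1, Sptb and Aqp1, the globins, and choroid plexus genes were named; Ank3, Sptan1, Sptbn1, Epb41l3, Slc4a2, Tgm2, Add3, Tfrc, Gata1 and Klf1 were added after their values were seen. Probe sets cannot tell near-identical transcripts apart. Precision is limited by 3 arrays per tissue. Alternatives covered scaling, filters, blocks, arrays in the fit, thresholds, presence cut-offs and fits without single arrays or rats.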

Additional observations from a re-analysis of the deposited data

Results flagged for a closer look

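The effect of tissue differed between the brain regions for 2 of the 9 genes, by the test of HC minus PFC itself. Gypc was lower in HC than in PFC by a log2 difference of -1.42 and Epb41 by -0.64. For Gypc this means a gap to blood of -3.06 in HC and -1.64 in PFC, and for Epb41 of -5.48 and -4.84. Both comparisons with blood share the blood arrays. Groups of 3 arrays were not examined for outliers.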

How the results depend on the processing

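Of the values of single genes under the alternatives, 667 kept direction and side of the threshold, 4 were called that had not been, and 4 lost their call, all of them between HC and PFC. The lost calls were all of Epb41 and the gained ones of Ank1 and Sptb. With the rat as a fixed replicate block, 9 of the 9 genes were lower than blood in HC and in PFC and 2 were lower in HC than in PFC, and 7967 probe sets were higher and 6071 lower in HC than in blood. The block changed no call of the 9 genes, and as a random replicate block its consensus correlation was 0.0026. Without a filter, 13581 probe sets were called lower in HC and 13719 in PFC than in blood (the cause was not tested). A filter at 7.2 gave 3879 and 3945. Housekeeping scaling gave 3598 higher and 10984 lower in HC, 3439 and 11231 in PFC, and 1 of the 9 genes lower in HC than in PFC. With only the brain arrays, 2136 probe sets were higher and 2210 lower in HC than in PFC, among them 1 higher gene of the 9 (Sptb). With all 9 arrays and an adjusted p under 0.01, 416 were higher and 452 lower in HC than in PFC. With an adjusted p under 0.05 and a log2 difference above 1, 4902 were higher and 3383 lower in HC than in blood, 4875 and 3344 in PFC, and 201 and 226 between the regions, with 1 of the 9 genes lower (Gypc). A presence cut-off of 5.2 gave 5 genes in HC and 7 in PFC, one of 7.2 gave 1 in HC, and the background limit gave 7 in each. Leaving out single arrays or rats, HC minus PFC gave 318 to 1298 probe sets higher and 338 to 1331 lower, with 0 to 1 of the 9 genes higher and 1 to 3 lower. The lowest counts came without rat 7 and the highest without the blood array of rat 5. Other probe set rules returned the same values by construction, because the 2 probe sets of Rhag are identical and the other genes had 1 each. Those values are counted among the 667. The limits are 3 rats, pooled spread that blood dominates, a log base read from the range, and background limits that stand in for detection p-values not used here.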
